A study of Mus musculus with 8 samples.

Results

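Klf6 peaks were described at 5 genes that encode regulators of transcription or signaling: Egr1, Klf4, Bcl6, Nfil3 and Cxxc4. The genes were selected because they are named in the gene column of at least 1 of 4 lists of Klf6 chromatin immunoprecipitation (ChIP-seq) peaks, and because the study treated them as Klf6-regulated on the basis of expression data that are not analysed here. The presence of a peak is therefore the reason for their selection and not a result. They are 5 of 3888 genes named in the lists, and they hold 9 of 7855 peaks with a named gene and of 36280 peaks in all. A gene is named for a peak that lies between 50 kb upstream and 5 kb downstream of its transcription start site (TSS).

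The study asked where Klf6 binds DNA at 2 steps of oligodendrocyte differentiation. Oligodendrocyte progenitors (OLP) were purified from the cerebral cortex of C57BL/6 mice in the first postnatal week by panning on anti-PDGFRα plates, and both groups were cultured with 20 ng/ml of bFGF and 10 ng/ml of PDGF-AA, which keep progenitors dividing. The first group was left untreated (OLP). The other received thyroid hormone T3 at 40 ng/ml for 18 h and was labelled immature oligodendrocytes (iOL). By the study's methods T3 was given in a differentiation medium, so the groups may differ in medium as well as in T3. Each stage had 2 ChIP samples, A and B, made with a rabbit polyclonal antibody to Klf6, and the 4 input samples have no separate values here. Neither group carries a genetic change, and no sample without Klf6 was included, so signal that does not depend on Klf6 could not be subtracted beyond the input. The cell type labels could not be checked, since peak lists hold no expression of marker genes.

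Klf6 is a zinc finger factor of the Klf and Sp family, whose members bind GC boxes and CACCC elements in promoters. Egr1 is the zinc finger product of an immediate early gene, a class of genes that is transcribed within minutes of growth factor signaling. Klf4 is a relative of Klf6 that is known for its part in reprogramming to pluripotency, Bcl6 is a BTB zinc finger repressor, Nfil3 is a bZIP repressor that competes with the PAR bZIP activators for D-box sites, and Cxxc4 (also called Idax) binds Dishevelled and restrains Wnt signaling.

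In the deposited lists each peak has a number of tags, which is the raw count of reads in it, and a MACS score, which is 10 times the negative log10 of the p-value against background. It also has a fold enrichment over the background that MACS expects and a percent FDR, the false discovery rate. The 4 lists hold between 5777 and 12451 peaks and between 105081 and 152149 tags inside peaks. The smallest peak held 7 tags in both A samples, 9 in OLP B and 10 in iOL B. For peaks of exactly 12 tags, the A samples had a median fold enrichment of 21.88 (OLP) and 22.33 (iOL) and the B samples of 9.01 (OLP) and 10.57 (iOL). Tags and fold enrichment were thus compared within a sample, and samples were compared by the position of their peaks.

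Peaks of the 5 regulators were listed unevenly over the 4 samples. OLP A had 1 peak, in Klf4, and OLP B had 1 peak, in Egr1. The sample iOL A had 3 peaks, 1 each in Egr1, Bcl6 and Cxxc4, and iOL B had 4, of which 2 were in Egr1 and 1 each in Nfil3 and Cxxc4. Over both replicates, 2 of the 5 genes had a peak in OLP and 4 in iOL, and Egr1 alone had one in both stages. The whole lists named 2080 genes in OLP A, 1420 in OLP B, 1776 in iOL A and 1099 in iOL B. For both A and B, more genes were thus named in OLP than in iOL. Among all 3888 genes with a listed peak, 31.1% had one in both stages, 23.8% had one in both replicates of a stage and 63.9% had one in exactly 1 sample. Of the 5 regulators, Egr1 and Cxxc4 had peaks in both iOL replicates, and Klf4, Bcl6 and Nfil3 had a peak in exactly 1 sample. No member had a peak in both OLP replicates. With 5 genes selected on these peaks, the difference between stages was not tested.

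**Figure D1:**
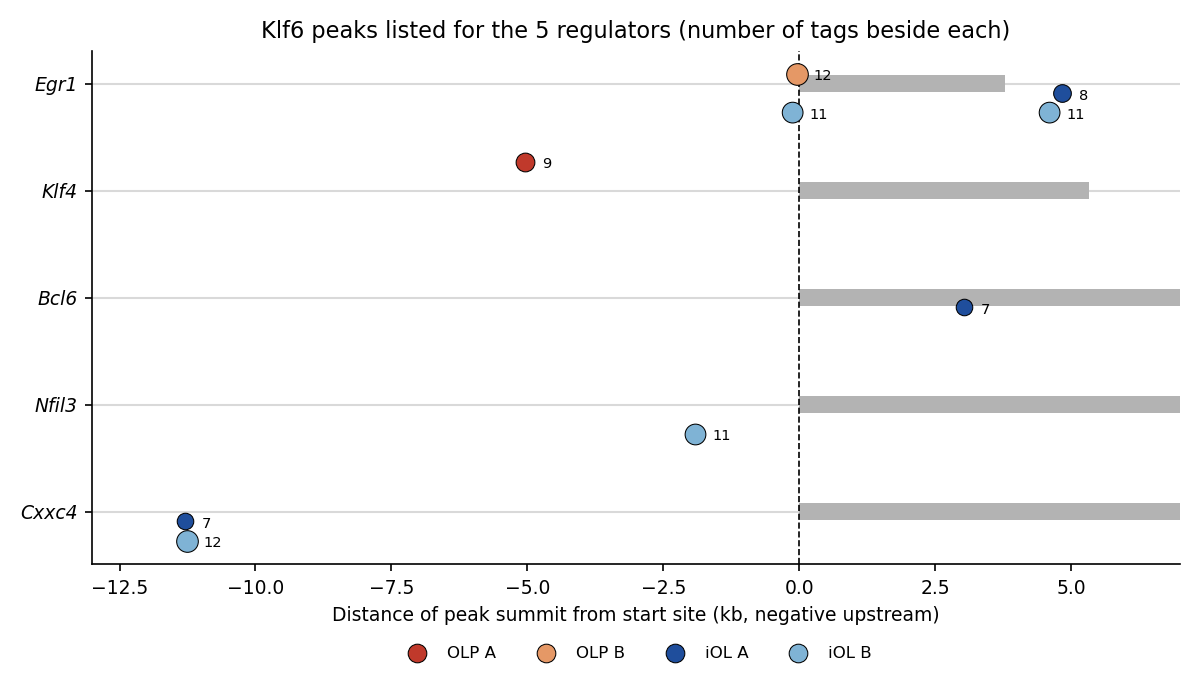
Position of the 9 Klf6 peaks relative to the TSS of the 5 regulators, in kb with upstream to the left. Each circle is the summit of 1 peak, colored by sample, with its area proportional to its number of tags (printed beside it), the dashed line marks the TSS, and grey bars mark the genes, which are cut at 7 kb for Bcl6, Nfil3 and Cxxc4. The 4 Egr1 peaks fall in 2 places, at the TSS and beyond the end of the gene, and the Cxxc4 peaks of iOL A and iOL B lie on top of each other.

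The 9 peaks held few tags, 7 to 12, but small size was not particular to them. The median peak of a whole list held 8 tags (both A samples), 12 tags (OLP B) or 13 tags (iOL B). An exact Poisson interval at 95% confidence runs from 2.81 to 14.4 for 7 tags and from 6.20 to 21.0 for 12 tags. It covers counting error alone. The intervals of all 9 peaks overlap, and tags are not scaled between samples, so no order of the peaks by tags is given. The intervals take no account of the smallest number of tags at which each list begins. The MACS score was under 50 in 8 of 9 peaks, against 40.6% of all peaks with a named gene, and the lists start at a score of 40. Only the Klf4 peak, with a score of 65.27, was above the median of 53.29. The FDR was 0% for the Klf4 peak and for the 3 peaks of iOL A, 1% for the Egr1 peak of OLP B and between 1.82% and 3.39% for the 4 peaks of iOL B.

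**Figure D2:**
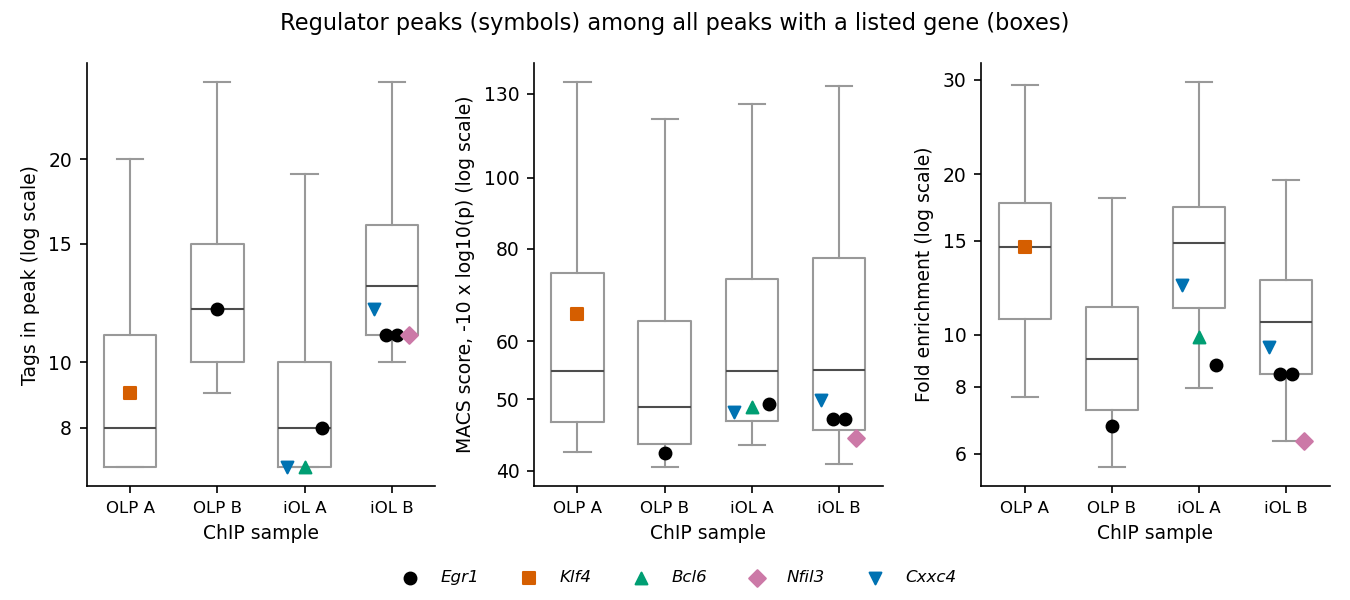
Tags, MACS score and fold enrichment (log axes) of the 9 regulator peaks (symbols by gene) beside all peaks with a named gene in the same sample (box, quartiles with the median as a line; whiskers, 5th to 95th percentile). The Egr1, Bcl6, Nfil3 and Cxxc4 peaks lie below the median score of their sample, and the Klf4 peak lies above it.

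Egr1 had the most peaks, 4 in 3 samples, at 2 places (gene at mm9 chromosome 18, 35020861 to 35024638, plus strand, ENSMUSG00000038418). The promoter peak of OLP B (35020707 to 35020898, 192 bp) held 12 tags, with a score of 42.32 and a fold enrichment of 6.76. The promoter peak of iOL B (35020684 to 35020827, 144 bp) held 11 tags, with a score of 47.03 and a fold enrichment of 8.46. By fold both were low in their lists, with a lower fold in 10.2% of the OLP B peaks and in 18.0% of the iOL B peaks. A lower score was found in 16.2% (OLP B) and 26.0% (iOL B), and fewer tags in 43.3% (OLP B) and 15.5% (iOL B). Their summits lay 49 bp and 120 bp upstream of the TSS, and the peaks shared 121 bases. The peak of OLP B reached 38 bp into the first exon, which is untranslated there, whereas the peak of iOL B ended upstream of the gene.

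No promoter peak was listed for Egr1 in OLP A or iOL A. The nearest OLP A peak was 49.6 kb from the OLP B peak, and the nearest iOL A peak was 4.74 kb from the iOL B peak. Each promoter peak therefore had a counterpart in the other stage and none in the other replicate of its own stage, and both were in samples labelled B. A peak within 500 bp of a TSS was uncommon in these lists, at 1.25% of the peaks with a named gene, and both Egr1 promoter peaks were among these 98 peaks. By sample they were 31 of 1647 peaks with a named gene in OLP B and 25 of 1242 in iOL B. In the A samples they were 30 of 2744 (OLP) and 12 of 2222 (iOL). Of the 98, 7.14% had a peak of the other replicate within 500 bp and 19.4% had one of the other stage.

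The second place was downstream of Egr1, and it was listed in iOL alone. The iOL A peak (35025566 to 35025727, 162 bp) held 8 tags, with a score of 49.32 and a fold enrichment of 8.78. Of the iOL A peaks, 6.60% had a lower fold, 31.1% a lower score and 32.8% fewer tags. The iOL B peak (35025370 to 35025513, 144 bp) held 11 tags, with the same score and fold enrichment as the promoter peak of that sample. The summits were 4832 bp and 4606 bp from the TSS, just inside the 5 kb limit at which the lists stop naming a gene, and 1054 bp and 828 bp past the annotated end of the gene. These 2 peaks shared no base, with a gap of 52 bp between them and summits 226 bp apart. They overlapped no annotated gene, and the nearest TSS of another gene was that of Gm17507, at 0.929 kb from the iOL A summit and 0.703 kb from the iOL B summit, so Egr1 was not the nearest TSS in the GENCODE annotation.

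The Klf4 peak was listed in OLP A alone. It lay 5034 bp upstream of the TSS (mm9 chr4:55550279-55550427; the gene, ENSMUSG00000003032, lies at 55540013 to 55545347 on the minus strand), in sequence with no annotated gene. The peak held 9 tags in 149 bp, with a fold enrichment of 14.58, which is the median of that sample. Of all OLP A peaks, 51.8% had fewer tags and 62.3% had a lower score. The nearest peaks of the other samples lay at 745 kb (iOL A), 504 kb (iOL B) and 186 kb (OLP B). Its sequence is shown because the letters C and T make up 90.6% of it, with the longest run free of other letters, 35 bases, in capitals (plus strand).
Klf4 OLP A: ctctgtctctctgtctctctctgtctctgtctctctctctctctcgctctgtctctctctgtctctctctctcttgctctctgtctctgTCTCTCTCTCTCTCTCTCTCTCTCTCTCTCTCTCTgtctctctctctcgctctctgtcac

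Such pyrimidine-rich peaks, at 90% or more on either strand, made up 1.3% of the peaks with a named gene. Of the 118 stretches of 32 bases in the Klf4 peak, 61 occurred again elsewhere in the mm9 genome, the most frequent 800351 times. A further 257 peaks elsewhere in the genome shared at least 1 of these stretches, of which 125 were in iOL A, 103 in OLP A, 18 in iOL B and 11 in OLP B. The Klf4 peak was thus the member peak with the highest score and also the only one made of a simple repeat. How reads were placed when they matched more than 1 site is not given in the sources used here, and the part of repeated sequence in the peak was not tested.

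The repressor gene Bcl6 had its peak in iOL A alone. The peak (mm9 chr16:23985557-23985697, 141 bp) lay in the first intron, 3030 bp downstream of the TSS used in the lists and 3270 bp from the start of the GENCODE transcript Bcl6-001 (gene ENSMUSG00000022508, 23965138 to 23988938, minus strand). It held 7 tags, the minimum of that list, with a score of 48.88 and a fold enrichment of 9.92, and 10.9% of the iOL A peaks had a lower fold. The nearest peak of iOL B was 1211 kb away, and OLP peaks were no nearer than 269 kb (A) and 342 kb (B). Of its 110 stretches of 32 bases, 9 had a further copy in the genome. The sequence is shown as an intronic site seen in 1 sample, with its longest run of T, 16 bases, in capitals (plus strand).
Bcl6 iOL A: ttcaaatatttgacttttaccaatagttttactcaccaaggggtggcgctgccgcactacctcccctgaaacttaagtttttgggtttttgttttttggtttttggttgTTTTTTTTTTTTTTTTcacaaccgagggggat

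Nfil3, the other repressor gene, had its peak in iOL B alone, 1911 bp upstream of the TSS (mm9 chr13:53078251-53078404; gene ENSMUSG00000056749, 53062578 to 53076442, minus strand). It held 11 tags in 154 bp, with a score of 44.25 and a fold enrichment of 6.34. Of the iOL B peaks, 3.22% had a lower fold, which places this peak near the bottom of its list by fold. A lower score was found in 16.7% and fewer tags in 15.5%. The nearest peak was 60.7 kb away in OLP A and 154 kb away in OLP B and iOL A. The peak overlapped no annotated gene, and the nearest other protein-coding TSS, that of Auh, was 53.3 kb away. All of its 123 stretches of 32 bases occur in 1 place in the genome, and the sequence is shown as the only one outside the Egr1 locus with that property (plus strand, no capitals).
Nfil3 iOL B: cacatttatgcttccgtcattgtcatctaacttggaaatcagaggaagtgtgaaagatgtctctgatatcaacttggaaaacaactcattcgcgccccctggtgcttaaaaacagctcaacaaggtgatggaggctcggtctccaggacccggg

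Cxxc4, the Wnt inhibitor gene, had overlapping peaks in both iOL replicates and none in OLP. They lay 11297 bp (iOL A) and 11269 bp (iOL B) upstream of the TSS (gene ENSMUSG00000044365, mm9 chromosome 3, 133899784 to 133925117, plus strand). The iOL A peak (chr3:133888068-133888212, 145 bp) held 7 tags, with a score of 48.02 and a fold enrichment of 12.41. The iOL B peak (chr3:133888076-133888233, 158 bp) held 12 tags, with a score of 49.83 and a fold enrichment of 9.51. Their summits were 28 bp apart, and the nearest OLP peaks were 275 kb away. Both peaks lie in an intron of the noncoding gene Gm2078. The sequences of both peaks are shown with the 137 bases that they share in capitals (plus strand).
Cxxc4 iOL A: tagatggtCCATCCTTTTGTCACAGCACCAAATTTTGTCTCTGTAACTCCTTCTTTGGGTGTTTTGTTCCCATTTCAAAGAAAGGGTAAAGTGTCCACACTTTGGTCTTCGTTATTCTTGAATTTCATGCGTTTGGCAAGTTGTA
Cxxc4 iOL B: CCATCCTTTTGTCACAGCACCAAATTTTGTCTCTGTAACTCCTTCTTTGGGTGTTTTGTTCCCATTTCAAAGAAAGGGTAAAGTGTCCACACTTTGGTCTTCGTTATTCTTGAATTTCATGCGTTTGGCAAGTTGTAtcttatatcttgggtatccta

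The Cxxc4 peaks were repeated sequence for the most part. Of the stretches of 32 bases, 100 of 114 (iOL A) and 113 of 127 (iOL B) occurred elsewhere in the genome, up to 1704 and 1744 times. Another 29 peaks shared a stretch with the iOL A peak and 48 with the iOL B peak, in all 4 samples. The Cxxc4 pair was the only case in which peaks of 2 replicates of a stage overlapped by at least 1 base at a member gene.

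The support of a peak by the other replicate was read against all peaks with a named gene. A peak of the other replicate within 500 bp was found for 20.9% of peaks in OLP A, 34.1% in OLP B, 25.9% in iOL A and 45.3% in iOL B, and for 28.9% over the 4 lists. Of the 9 member peaks, 4 had such a neighbor, namely the downstream Egr1 pair and the Cxxc4 pair. A peak of the other stage was within 500 bp for 40.9% of all peaks with a named gene and for 2 of the 9 member peaks, the Egr1 promoter pair. Neither count, over so few peaks, is read as a departure from the rest of the lists.

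**Figure D3:**
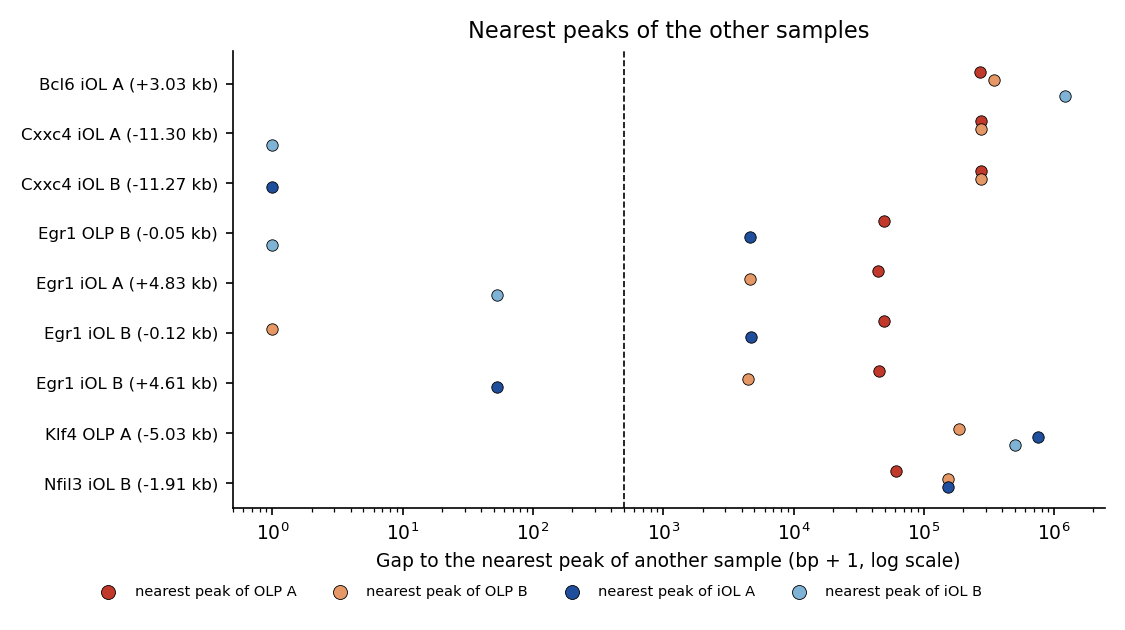
Gap in bp (plus 1, log axis) from each of the 9 regulator peaks to the nearest peak of each of the other 3 samples, colored by sample, with a dashed line at 500 bp. Only the Cxxc4 and Egr1 peaks have a point left of the line, and the nearest peaks to those of Klf4, Bcl6 and Nfil3 are 60.7 kb or more away.

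The sequence under the peaks varied among the genes. No stretch of 32 bases in the 4 Egr1 peaks occurred elsewhere in the genome, and the same held for the Nfil3 peak, so that 5 of 9 member peaks were free of repeated stretches against 12.1% of all peaks with a named gene. In 3 of 9, the Klf4 peak and both Cxxc4 peaks, more than 50% of the stretches were repeated, against 82% of all peaks with a named gene. Among the 949 named peaks without a repeated stretch, 11 (1.16%) had a peak of the other replicate within 500 bp, and the downstream Egr1 pair made up 2 of these 11. A peak of the other stage was within 500 bp of 12 of the 949, of which the Egr1 promoter pair made up 2. Where more than 50% of stretches were repeated, as in Cxxc4, 34.0% had a peak of the other replicate nearby and 47.5% one of the other stage.

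The share of named peaks without a repeated stretch differed among the samples, at 8.82% in OLP A, 8.15% in iOL A, 11.7% in iOL B and 23.1% in OLP B. The GC content was 63.5% and 63.9% in the Egr1 promoter peaks, 53.7% and 54.9% in the downstream Egr1 peaks, 51.7% in Klf4 and 47.4% in Nfil3. These 6 peaks were above the upper quartile of 42.6% over all peaks with a named gene, whereas Cxxc4 (39.3% and 38.6%) and Bcl6 (37.6%) were within the quartiles. For the 98 peaks within 500 bp of a TSS the median GC content was 47.5% (range 23.7% to 69.0%), and 42.9% of them held no repeated stretch.

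**Figure D4:**
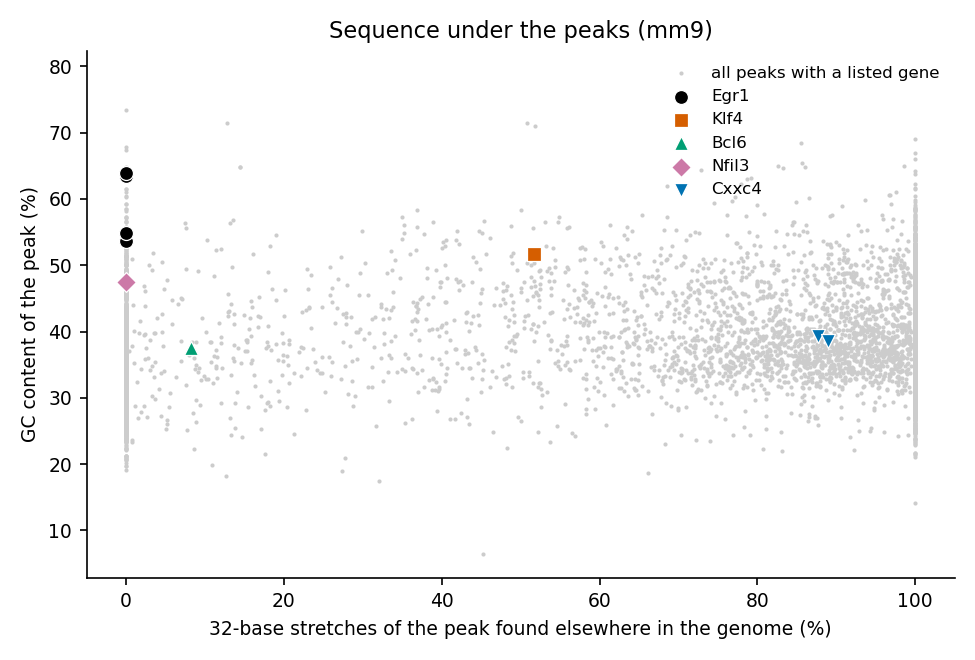
GC content of each peak (%) against the share of its 32-base stretches that occur elsewhere in the mm9 genome (%), for the regulator peaks (symbols by gene) and all 7855 peaks with a named gene (grey). The 4 Egr1 peaks and the Nfil3 peak lie at 0%, Bcl6 at 8.18%, Klf4 at 51.7% and the Cxxc4 peaks at 87.7% and 89.0%.

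Letters of the Klf and Sp family elements were searched on both strands within 100 bases of each summit. The letters CACCC were present in 7 of 9 windows, in all but those of Klf4 and of the Egr1 peak of OLP B, and in 20% of the windows of all peaks with a named gene. The 2 Cxxc4 windows overlap, as do the 2 windows at the Egr1 TSS, so the 9 windows are not 9 separate sites. The windows were also not matched for GC content, so the count is not read as a departure from the rest of the lists. The GC box letters GGGCGG were in 0 of the 9 windows and in 0.929% of all. In the RefSeq promoters of 300 bases (GRCm38.p6), CACCC was in 57.5% and GGGCGG in 35.7% of 32851 promoters. These promoters are longer than the windows and were not matched to them for GC content, so the shares are not directly comparable. The promoters of Klf4, Nfil3 and Cxxc4 held 4, 9 and 2 matches to GGGCGG, and the 2 promoters of Bcl6 held 2 and 0, while the peaks of these 4 genes lay 1911 bp or more from the TSS used in the lists. No promoter of 300 bases was analysed here for Egr1, the member with peaks at its TSS. The windows of its 2 peaks at the TSS were searched. They held no match to GGGCGG, and CACCC was in the window of iOL B and not in that of OLP B. A match is a description of the letters in a window and not a binding site.

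Outside the named peaks, the surroundings of the 5 genes held few others. Within 100 kb of the TSS there were 6 peaks at Egr1, 3 at Cxxc4, 2 each at Bcl6 and Nfil3 and 1 at Klf4. The 5 that are not named for a member were each seen in 1 sample. They included an OLP A peak of 7 tags 49.7 kb downstream of Egr1 and an OLP B peak of 11 tags 85.1 kb downstream that is named for Etf1. An OLP A peak of 7 tags, 62.8 kb upstream of Nfil3, was repeated sequence over its whole length.

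Relatives and partners of the 5 regulators were counted in the same way, from lists drawn up with results of these data known. A peak was named for 7 of 79 such genes, 8.86%, against 15.7% of 21896 protein-coding RefSeq genes. In the Klf and Sp family, 3 of 25 further genes had a peak: Sp8 in OLP A (8 tags) and iOL A (10 tags), both near 49.8 kb upstream, Klf2 in OLP A (7 tags, 27.1 kb upstream) and Sp4 in iOL A (7 tags, 44.7 kb upstream). These 4 peaks were 97.6% to 100% repeated sequence. Of 17 immediate early genes, Ier2 alone had a peak, with 12 tags in OLP B, 3227 bp downstream of the TSS and with no repeated stretch. None of the other members of that list, which includes Egr2, Egr3, Egr4, Fos and Jun, had a named peak.

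Of the 11 Bcl6 relatives and corepressors, Zbtb20 had a peak (7 tags, OLP A, 40.8 kb upstream). Of 11 CXXC domain genes, which share the CpG-binding domain of Cxxc4, Kdm2a had one (7 tags, OLP A, 4984 bp downstream). Of 8 partners of Cxxc4 in Wnt signaling, Tcf7l2 had one (14 tags, OLP B, 4026 bp downstream, no repeated stretch). None of the 7 PAR bZIP and C/EBP genes, which bind sites related to those of Nfil3, had a peak. None of the 8 peaks of these genes had a peak of the other replicate within 500 bp, against 28.9% of all peaks with a named gene. Over so few peaks, this is not read as a departure from the rest of the lists. It is not set against the 5 regulators, which were selected because they have peaks.

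The pattern over the 4 samples was compared between genes by the tags of the largest named peak, set to 0 where none was named. Egr1 had 0 tags in OLP A, 12 in OLP B, 8 in iOL A and 11 in iOL B, and 35 other genes were named in the same 3 samples. The closest of these were Lancl2 and Nkapl, at a summed difference of 2 tags. For Cxxc4, 66 other genes were named in the same 2 samples, and 5 of these had the same tags in both. The members with a peak in 1 sample shared their pattern with many genes: 104 had the same tags as Klf4 in all 4 samples, 368 the same as Bcl6 and 81 the same as Nfil3.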

How the data were processed

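Peak lists of 4 Klf6 ChIP-seq samples were analysed, 2 biological replicates for each of OLP and iOL. By the study's methods, quality-filtered reads were aligned to mm9 (Bowtie2), and the authors then ran MACS on each ChIP sample with input as its reference, without pooling replicates. CASAVA 1.8 is named in the submitters' processing notes. The version of MACS, the number of aligned reads and the handling of reads that match several sites are not given in the sources used here. Depth is therefore known only as tags in peaks, and a peak that is not listed was not called, which does not show that Klf6 was absent.

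The deposited tags per peak are raw counts. The score that the authors' peak caller wrote is 10 times -log10 of the p-value. The deposited fold enrichment is a linear ratio over expected background, and the deposited FDR is a percent. TSS distances, in bp, are the authors' own. Each value is from a single sample and has no replicate error.

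Members were found by symbol in the gene column. Coordinates were written 1-based. Peaks were called near when at most 500 bp lay between them, as in the study. GC content, letters near the summit and the number of genomic copies of each stretch of 32 bases (either strand) were read from the reference genome, which is the same build (NCBIM37), with GENCODE gene models. Gap and copy counting were tested on simulated data. Intervals on tags are exact Poisson (scipy 1.17.1). The genes named are the 5 members, the related genes with a peak, the genes at or nearest to a member peak, and genes of the most similar pattern where at most 3 tied. The members, lists and alternatives were chosen with earlier results of these data known, so no test was made and counts stand beside those over all peaks. The alternatives were at least 10 tags, a score of 50 or more, an FDR under 5%, a window from 15 kb upstream to 5 kb downstream, a peak in both replicates, other gaps and leaving out each sample. Expression data were not used here. No DNA sequence is printed for Egr1.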

Additional observations from a re-analysis of the deposited data

How the results depend on the processing

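Of 49 recomputed values, 31 stayed within 1.5 times the reported count and 18 did not. The 31 include values that could not change, so the tally does not measure stability. Among them are the count of 1 stage when a sample of the other stage was left out, and the values of the next 2 settings. An FDR under 5% and the window from 15 kb upstream to 5 kb downstream left every count as reported. This outcome was fixed in advance, since all 9 peaks have an FDR of at most 3.39%. They also lie between 11297 bp upstream and 4832 bp downstream of the TSS, so these settings do not speak to how stable the counts are. With at least 10 tags, 1 gene had a peak in OLP, 5 peaks remained listed and 0 had a peak of the other replicate nearby, since the A samples hold the smaller peaks. With a score of at least 50, only the Klf4 peak was left, so that 1 gene had a peak in OLP, 0 in iOL and 0 in both stages, with 0 peaks near one of the other replicate and 0 near one of the other stage. With a peak required in both replicates there were 2 genes for iOL, 0 for OLP and 0 for both stages. Requiring 1 shared base left 2 peaks supported by the other replicate, those of Cxxc4, and allowing a gap of 5000 bp gave 4 peaks, all of Egr1, near one of the other stage. Leaving out 1 sample at a time gave 1 to 2 genes with a peak in OLP, 3 to 4 in iOL, 0 to 1 in both stages and 5 to 8 peaks. Without OLP A the Klf4 peak was lost, leaving 1 gene in OLP. Without OLP B no gene had a peak in both stages and 1 had a peak in OLP. Without iOL B 5 of the 9 peaks were left.

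No paired analysis was possible because the results are counts of called peaks and come from no test. Read within a letter, 0 of the 5 genes had a peak in both stages in the A samples and 1, Egr1, in the B samples, and the labels do not say what a letter shares across stages. With 7 to 12 tags a peak, and lists that begin at 7, 9 and 10 tags, whether a peak missing from a sample is absent or under the limit of its list cannot be told apart. The number of aligned reads is not known, and the smallest peak listed and the fold at a given number of tags differed more between A and B than between stages, the cause of which was not tested.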

Other observations

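The letters GGNGGCGC, which are part of the sequence bound by the insulator protein CTCF, were searched after the sequences of the peaks had been seen. They were present on 1 strand or the other in the Bcl6 peak of iOL A and in the Nfil3 peak of iOL B, 2 of the 9 member peaks, and in 65 of all 36280 peaks (0.179%). They were in 11.3% of the RefSeq promoters of 300 bases, which differ from the peaks in length, so these shares are not directly comparable. Both peaks are called in 1 sample only and have few or no repeated stretches. The choice followed the sequences, so this is given as a description with no test, and a match is not a binding site.

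Among the peaks with a named gene and no repeated stretch, the 11 with a peak of the other replicate within 500 bp belonged to 7 genes. Egr1 was one of them, and the others were Atp5g3, Lrrn3, Padi4, Rfxank, Tex14 and Tmem196, named here after their values were seen.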
